A study of Mus musculus with 6 samples.

Results

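Potassium channel subunits outside the Kcnh family were followed in forebrain RNA of mice exposed to water avoidance stress (WAS) and of control mice. The genes were chosen by their symbol. Of 98 entries whose symbol starts with Kcn, the 8 Kcnh genes and Kcne2 and Kcnj13 were left out, which left 88. Of these, 62 had at least 10 read counts in every library and were described, among 23282 entries in all. They comprised 59 genes that code for a protein and 3 non-coding transcripts, Kcnq1ot1, Kcnmb4os1 and Kcnmb4os2.

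All 6 mice were male C57BL/6J mice of 8 to 10 weeks, and 1 library was made from a forebrain hemisphere of each mouse, without olfactory bulb and cerebellum. The 3 WAS mice stood for 1 h on a small platform in a basin of water, and the 3 control mice stood for 1 h on the same platform in a container without water. Tissue was taken directly afterwards and sequenced by QuantSeq 3′ mRNA-Seq, which reads the ends of polyadenylated transcripts. Levels are given as raw read counts or as CPM, the count scaled to a common library size by TMM, and they were not compared between genes. Groups follow the sample labels. In the count tables, however, columns of WAS mice are headed WC and those of control mice WS, letters that the methods do not define. If the labels had been exchanged, each direction given here would turn around.

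Potassium channels let potassium leave a cell, which sets the resting potential, ends the action potential and limits the rate of firing. Voltage-gated (Kv) channels are assembled from pore-forming alpha subunits with cytoplasmic or membrane partners, inward rectifiers (Kir) and two-pore channels carry resting and G protein-gated currents, and the BK, SK and Slack channels open with calcium or sodium inside the cell. In the brain, different neurons and glia use different subunits, for example Kv3 subunits in fast-spiking neurons and Kir4.1 in astrocytes.

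The libraries held between 9248520 and 10502029 counts. Over all features, the biological coefficient of variation fitted by edgeR was 14.04%. Forebrain genes fixed as markers (8 of 8, among them Emx1 and Lhx2) were above 3 counts in every library, and their summed level was 846 to 1012 CPM in the WAS libraries and 938 to 1093 CPM in the control libraries. The 9 cerebellum and hindbrain markers summed to 46.8 to 57.5 CPM and 36.4 to 55.3 CPM. Gabra6, Hoxa5, Hoxb5 and Hoxc4 had 3 counts or fewer in every library, while Pcp2 had 191 to 252 and Zic2 174 to 320 counts, and Barhl1 had 39 and 45 counts in WAS replicates 1 and 3 and 1 to 10 in the others. Of the 4 tested, 3 were higher in the WAS group and 1 had an unadjusted p under 0.05.

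The marker lists of thalamus, midbrain and brainstem, and striatum set WAS replicates 1 and 3 apart from the other 4 libraries. WAS replicate 2 also lay outside the control range in some lists. It was above that range in the midbrain and striatum lists and below it in the list of cortical projection neurons. The summed level of 13 thalamus markers was 978 CPM in WAS replicate 1 and 853 CPM in replicate 3, against 450 CPM in WAS replicate 2 and 399 to 472 CPM in the control libraries. All 13 of these genes were higher in the WAS group, 7 of them with an unadjusted p under 0.05. The 14 midbrain and brainstem markers summed to 98.7 and 160 CPM in WAS replicates 1 and 3, against 34.2 CPM in WAS replicate 2 and 27.1 to 29.3 CPM in the control libraries, with Pitx3 at 3 counts or fewer in every library. All 10 that could be tested were higher in the WAS group, 7 with an unadjusted p under 0.05. The 12 striatum markers went the other way, with 237 and 489 CPM in WAS replicates 1 and 3, 2370 CPM in WAS replicate 2 and 1223 to 1700 CPM in the control libraries. All 10 tested striatum markers were lower in the WAS group and none had an unadjusted p under 0.05, with Gpr6 at 0 and Drd2 at 3 counts or fewer in every library. The 10 markers of cortical projection neurons were all lower in the WAS group, 5 with an unadjusted p under 0.05, with sums of 2641 to 3132 CPM against 3374 to 3932 CPM in the control libraries. The 8 hippocampus markers were all higher, 2 of them with an unadjusted p under 0.05, and summed to 126 to 239 CPM against 89.8 to 152 CPM. The choroid plexus list ranged from 51.9 to 1198 CPM over the WAS libraries and from 18.6 to 1257 CPM over the control libraries, and the hypothalamus list from 9.59 to 23.4 CPM and from 2.64 to 56.2 CPM. No gene of the thalamus, cortex and hippocampus lists was at 3 counts or fewer throughout. The part of these regions in the results below was not tested, and in bulk tissue fewer cells of a type and less RNA per cell cannot be told apart. The genes with a call are therefore also given without WAS replicate 2 and for WAS replicate 2 alone against the control libraries, and other named genes without WAS replicate 2 where that made a call. A call below means an unadjusted p under 0.05, WAS 1 stands for WAS replicate 1, control 1 for control replicate 1 and so on, and a value in parentheses after a gene's counts or after a library left out is a log2 fold change. In the comparison of 1 library with 3, the lone library is assumed to vary like the control libraries.

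**Figure D1:**
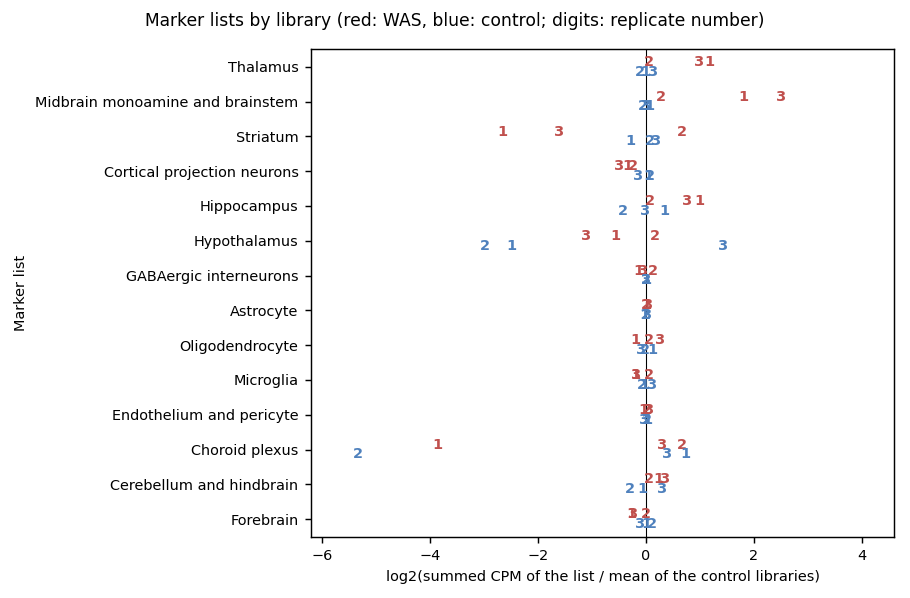
Summed CPM of each marker list in each library, as log2 of the ratio to the mean of the control libraries, with red digits for WAS and blue digits for control replicates. WAS replicates 1 and 3 stand to the right of the other libraries in the thalamus and midbrain lists and to the left in the striatum list, while WAS replicate 2 stands near the control libraries in the thalamus list.

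Across all 6 libraries, 41 of the 62 channel genes were lower and 21 higher in the WAS group. The share of lower genes was 66.1%, against 49.8% of all 15239 features tested. The median log2 fold change was -0.08 for the channel genes and 0.00088 for all features. By edgeR's quasi-likelihood test, 15 of the 62 (24.2%) had an unadjusted p under 0.05, against 7.24% of all features tested. Of these, 12 were lower, a direction called in 3.4% of all features, and 3 were higher, a direction called in 3.85%. The lower genes included the BK subunit Kcnmb4 with its antisense transcript Kcnmb4os2, the silent Kv subunits Kcnv1 and Kcnf1, the Kv1 genes Kcna1 and Kcna2, the inward rectifiers Kcnj4 and Kcnj3, the Kv7 gene Kcnq5, the two-pore channel gene Kcnk4 and the Kv4 partner Kcnip3. The higher genes were the silent Kv subunits Kcng2 and Kcng4 and the glial inward rectifier Kcnj16.

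No channel gene, and no other feature, had an adjusted p under 0.05 by edgeR with Benjamini-Hochberg adjustment over all features, and the smallest adjusted p among the channel genes was 0.514. DESeq2 gave 16 channel genes with an unadjusted p under 0.05 (against 5.82% of all features) and 0 with an adjusted one, and limma on quantile-normalized counts gave 6 (against 5.7%) and 0. DESeq2 shared 14 of the 15 calls, all but Kcnip3, and limma shared 4, those of Kcng4, Kcnk4, Kcnmb4 and Kcnmb4os2. Scaling by total counts, which moved the median of all features to 0.04, kept 9 of the 15 calls, with 7.66% of all features called, and lost those of Kcna1, Kcna2, Kcnf1, Kcnip3, Kcnj3 and Kcnq5. The limits that the study set, a fold change of at least 1.5 with an unadjusted p under 0.05, were applied to the edgeR fit with TMM scaling, which is not the study's own quantile-normalized comparison, so these are not the study's calls. They were met by 4 of 62 genes (6.45%) against 2.49% of all features. Kcng2 and Kcng4 met them upward, as 1.82% of all features did, and Kcnmb4os2 and Kcnk4 downward, as 0.676% did. Each of these 4 genes had a mean level under 10 CPM in both groups. The 3 values of a group lay entirely outside those of the other for 7 of the 62 genes (11.3%), a share like the 11.7% of all features tested. These were Kcnmb4, Kcnmb4os2, Kcnk4, Kcna1, Kcna2 and Kcnt2, all lower as in 5.55% of all features, and Kcng4, higher as in 6.12%.

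**Figure D2:**
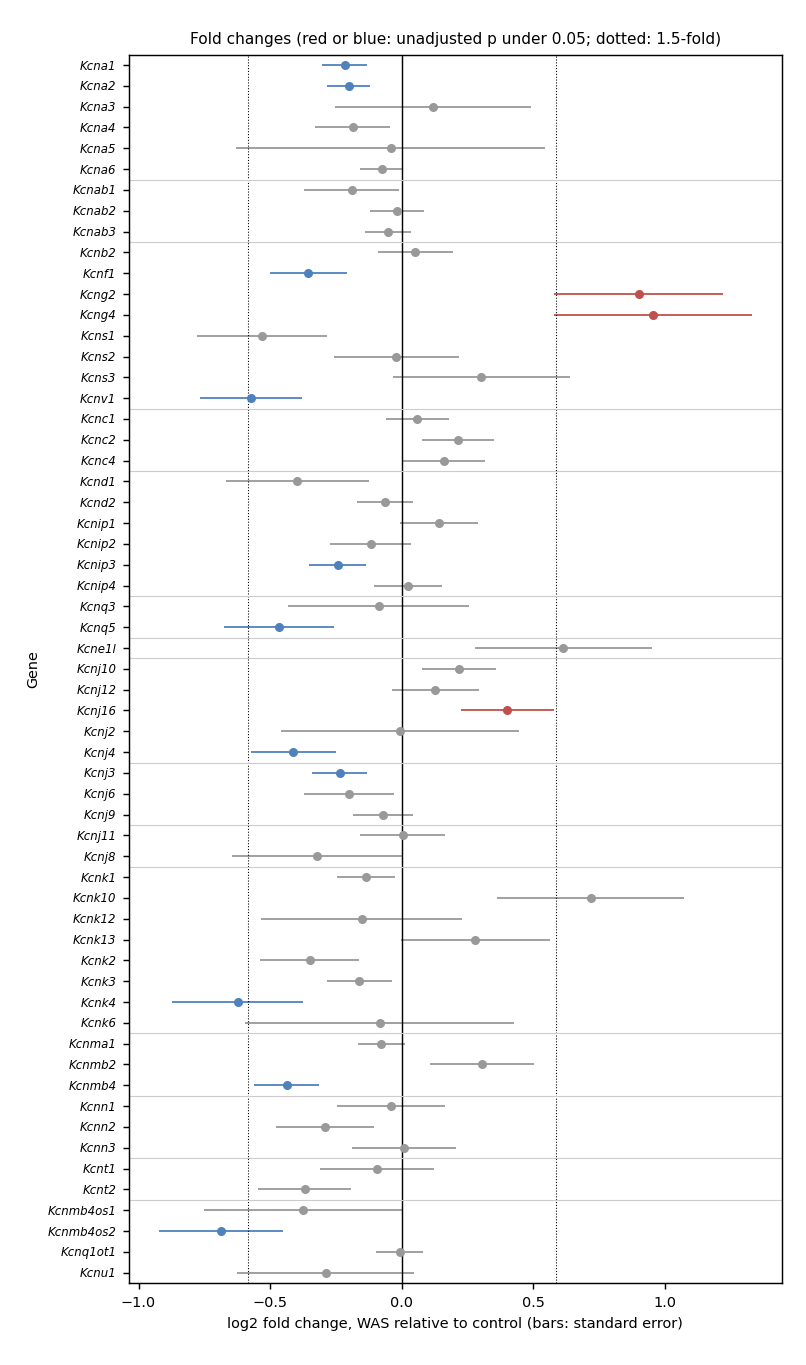
Log2 fold change of 59 of the 62 channel genes in WAS relative to control, with standard errors as bars, grouped by channel type. The 11 blue and 3 red genes had an unadjusted p under 0.05, and the dotted lines mark a 1.5-fold change, passed with that p by Kcng2, Kcng4, Kcnk4 and Kcnmb4os2.

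The spread between mice of a group was described but not tested. The median coefficient of variation of a channel gene was 18.1% over the WAS libraries and 11.4% over the control libraries. Over all tested features with at least 10 counts in every library these medians were 11.97% and 9.81%. WAS replicates 1 to 3 held the highest value of 17, 9 and 1 channel genes, against 20.9%, 16.4% and 17.6% of those features with at least 10 counts. Control replicates 1 to 3 held that of 14, 18 and 3, against 12.9%, 16.6% and 15.6% of the same features. The lowest value was in WAS replicates 1 to 3 for 17, 12 and 17 genes, against 22%, 15.8% and 17.4%, and in control replicates 1 to 3 for 3, 5 and 8, against 13.5%, 15.3% and 16%. Among the genes with the widest spread, named here after their values were seen, Kcnj2, which encodes the inward rectifier Kir2.1, had 54, 332 and 181 counts in the WAS replicates against 202, 235 and 160 in the control replicates. Kcna5 had 12, 68 and 18 counts against 27, 26 and 52. In both genes the lowest and the highest of the 6 libraries were WAS replicates 1 and 2. Without WAS replicate 2 both had a call, with log2 fold changes of -0.75 for Kcnj2 and -1.23 for Kcna5.

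Leaving out a library changed the number of channel genes past the threshold. Without WAS replicate 2, 32 of the 62 channel genes (51.6%) had an unadjusted p under 0.05, 11 higher and 21 lower, against 13.7% of all features. All 15 genes from the full comparison were among them. The study's limits, applied to this fit, were then met by 14, against 5.45% of all features, and by edgeR the adjusted p was under 0.05 for 10 (among them Kcnj4, Kcnk2, Kcnq5, Kcnv1, Kcnmb4 and Kcnip2, lower, and Kcng2 and Kcnj16, higher), against 3.18% of all features. Without WAS replicate 1 or WAS replicate 3 only 7 had an unadjusted p under 0.05, all of them lower, against 6.59% and 4.27% of all features. Without control replicates 1, 2 and 3 the numbers were 9, 4 and 14, against 4.92%, 4.09% and 7.19%. The number with no overlap between the groups was 33 without WAS replicate 2, where 29.4% of all features had none, and 9 to 23 without each other library, where 18.8% to 23.4% of all features had none.

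**Figure D3:**
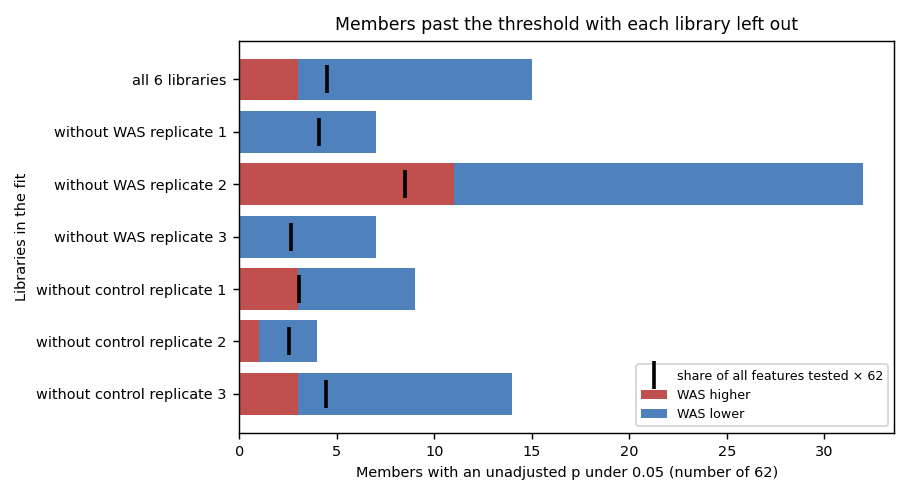
Number of the 62 channel genes with an unadjusted p under 0.05 in the comparison of all 6 libraries and after leaving out 1 library, split into genes higher (red) and lower (blue) in WAS. The black marks give the number that the share of all features tested would make of 62, and the bar reaches 32 without WAS replicate 2 and 4 without control replicate 2.

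WAS replicate 2 set alone against the 3 control libraries gave 5 channel genes with an unadjusted p under 0.05 (8.06%, against 5.39% of all features), none of them among the 15. Kcnj2 (log2 fold change 0.85), Kcna5 (1.06), Kcnip2 (0.27) and Kcnt1 (0.40) were higher there and Kcnc1 (-0.24) was lower. Of the 15 genes, 11 had the same direction as in the full comparison and 4, Kcnq5, Kcnj16, Kcnj4 and Kcng2, the opposite one. The full comparison also holds WAS replicate 2 and the same 3 control libraries, so a shared direction is partly built in. The median log2 fold change of the 62 genes was -0.08 for WAS replicate 2 alone too, with 38 of them lower (50.8% of all features were).

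**Figure D4:**
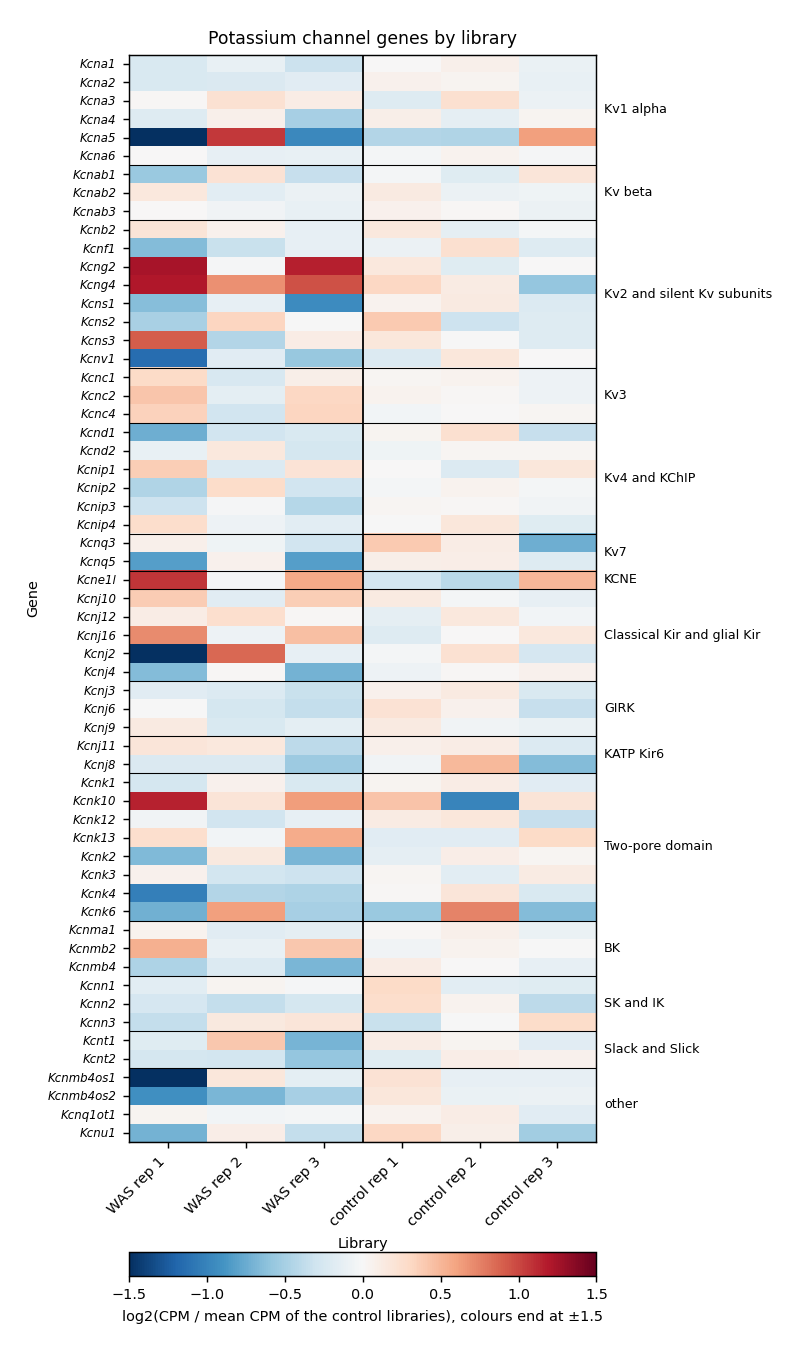
Level of 59 of the 62 channel genes in each library as log2 of its CPM over the mean of the control libraries, with blue for lower and red for higher, in rows grouped by channel type. The Kv3 genes are red in WAS replicates 1 and 3 and blue in WAS replicate 2, whereas Kcnmb4, Kcnmb4os2 and Kcna2 are blue in all 3 WAS libraries.

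BK channels open with calcium and voltage together, and their pore is encoded by Kcnma1. Kcnma1 had 3020, 2368 and 2628 counts in WAS replicates 1 to 3 and 3026, 3077 and 2576 in control replicates 1 to 3. The ranges overlapped, and the log2 fold change was -0.08 (SE 0.091, unadjusted p = 0.411 by edgeR). Kcnmb4, the beta4 subunit, is the neuronal partner that slows the gating of the channel. It had 555, 607 and 470 counts in the WAS replicates and 846, 767 and 670 in the control replicates. Every WAS library was below every control library, with 55.2 ± 9.24 CPM against 74.8 ± 5.87 CPM (SD, n = 3). This gave a log2 fold change of -0.44 (SE 0.12, unadjusted p = 0.00454, adjusted p = 0.514 by edgeR with Benjamini-Hochberg adjustment). It kept an unadjusted p under 0.05 with each single library left out, between -0.33 and -0.57, and was -0.21 for WAS replicate 2 alone, above that threshold. Kcnmb2, the inactivating beta2 subunit, had 141, 83 and 128 counts against 97, 101 and 93, with WAS replicates 1 and 3 above all controls and replicate 2 below them. Its log2 fold change was 0.30 (SE 0.20) with no call, and 0.47 with a call without WAS replicate 2.

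The gene Kcnmb4 lies on the minus strand of chromosome 10 at chr10:116417861-116473878 (mm10, GENCODE M21), and both non-coding neighbours lie on the plus strand. Kcnmb4os2, at chr10:116473163-116475319, overlaps the 5′ end of Kcnmb4, and Kcnmb4os1, at chr10:116418052-116421237, lies within its 3′ part, so that the last 500 bases of the Kcnmb4os1 transcript overlap Kcnmb4. How the authors treated strand when counting is not given in the sources used here, and counts of the genes on the opposite strands cannot be told apart where they overlap. The last 500 bases of the Kcnmb4os2 transcript overlapped no exon of another gene. Kcnmb4os2 had 36, 39 and 48 counts in the WAS replicates and 79, 64 and 61 in the control replicates. The groups did not overlap, and the log2 fold change was -0.69 (SE 0.24, unadjusted p = 0.0141, adjusted p = 0.585 by edgeR), -0.69 without WAS replicate 2 and -0.68 for WAS replicate 2 alone. The unadjusted p rose above 0.05 without control replicate 1 (-0.59) and for WAS replicate 2 alone. Kcnmb4os1 had 20, 68 and 59 counts against 79, 61 and 58, and WAS replicate 1 was far below the other 5 libraries.

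Kv2 channels are delayed rectifiers of central neurons, and the partners of the Kcnf, Kcng, Kcns and Kcnv groups form no channel alone but change the gating of Kv2 channels. Of the 9 genes of this set among the 62, 5 had an unadjusted p under 0.05 (against 7.24% of all features), 3 lower (3.4%) and 2 higher (3.85%), and the median log2 fold change was -0.02. In the comparison without WAS replicate 2, 4 were lower and 2 higher with a call, against 13.7% of all features in either direction. The Kv2 gene Kcnb2 had 229, 192 and 182 counts in the WAS replicates and 229, 182 and 187 in the control replicates. The groups overlapped, and its log2 fold change was 0.05 (SE 0.14).

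Kcnv1 encodes the silent subunit Kv8.1 of forebrain neurons. It had 759, 1367 and 1119 counts in the WAS replicates and 1500, 1891 and 1600 in the control replicates. WAS replicate 1 was the lowest, and after scaling WAS replicate 2 lay within the control range. Kcnv1 had a log2 fold change of -0.57 (SE 0.19, unadjusted p = 0.0128 by edgeR). It was -0.83 without WAS replicate 2, -0.36 without WAS replicate 1 and -0.17, with no call, for WAS replicate 2 alone, and the call was also lost without control 2 (-0.48). Kcnf1, encoding Kv5.1, had 370, 423 and 528 counts against 565, 686 and 487, and WAS replicate 3 and control replicate 3 overlapped. Its log2 fold change was -0.35 (SE 0.15, unadjusted p = 0.0351 by edgeR) and -0.34 for WAS replicate 2 alone, and the call was lost there and without WAS 1 (-0.23) or control 2 (-0.22).

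The Kcng genes moved the other way at low counts. Kcng2, encoding Kv6.2, had 96, 37 and 91 counts in the WAS replicates and 47, 36 and 39 in the control replicates. WAS replicates 1 and 3 were above every control and replicate 2 was among the controls. For Kcng2 the log2 fold change was 0.90 (SE 0.32, unadjusted p = 0.0172 by edgeR), 1.20 without WAS replicate 2 and -0.02 for WAS replicate 2 alone. The call was lost without WAS 1 (0.70), WAS 3 (0.74) or control 2 (0.82). Kcng4, encoding Kv6.4, had 36, 23 and 30 counts against 20, 17 and 10, and was the gene closest to the minimum of 10 counts. The groups did not overlap, and its log2 fold change was 0.95 (SE 0.38, unadjusted p = 0.0272 by edgeR), 1.07 without WAS replicate 2 and 0.67, with no call, for that replicate alone. The call was lost without WAS 1 (0.81), WAS 3 (0.96) or control 3 (0.74). Kcns2, the Kcns gene with the highest counts, had 107, 172 and 148 counts against 203, 121 and 125 (-0.02, SE 0.24).

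Kv1 channels sit on axons and at axon initial segments, where they oppose the start of an action potential. Of the 6 Kv1 alpha genes among the 62, 5 were lower, 2 of them with an unadjusted p under 0.05 (3.4% of all features), and the median log2 fold change was -0.13. Without WAS replicate 2, 4 of the 6 were lower with a call, against 13.7% of all features called in either direction. Kcna1, encoding Kv1.1, had 3770, 3738 and 3484 counts in the WAS replicates and 4559, 4666 and 3935 in the control replicates. Kcna2, encoding Kv1.2, had 2662, 2459 and 2744 counts against 3344, 3210 and 2744. In CPM both genes were lower in every WAS library than in any control library, by small amounts.

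The mean level of Kcna1 was 371 ± 27.6 CPM in WAS and 431 ± 26.2 CPM in control (SD, n = 3), and its log2 fold change was -0.22 (SE 0.087, unadjusted p = 0.0293 by edgeR). For Kcna2 the means were 265 ± 5.54 CPM and 305 ± 19.9 CPM (SD, n = 3), with a log2 fold change of -0.20 (SE 0.081, unadjusted p = 0.0302 by edgeR). Their values without WAS replicate 2 were -0.27 and -0.19, and those for this replicate alone were -0.12 and -0.22, both above the threshold. The call of Kcna1 was lost without WAS 3 (-0.17), control 1 (-0.21) or control 2 (-0.18), and that of Kcna2 without WAS 1 (-0.19), control 1 (-0.17) or control 2 (-0.18). All 3 Kv beta genes, whose products bind Kv1 channels in the cytoplasm, had log2 fold changes below 0 and none had a call. Without WAS replicate 2, 1 of them was lower with a call (Kcnab1, -0.45), against 13.7% of all features in either direction. Kcnab2, with the highest counts of them, had 2720, 2003 and 2267 counts against 2746, 2298 and 2222 (-0.02, SE 0.10).

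The Kv3 genes encode channels that allow firing at high rates. All 4 had log2 fold changes above 0, with a median of 0.19, and 0 of 4 had an unadjusted p under 0.05. Kcnc1 had 2312, 1473 and 1991 counts in the WAS replicates and 1991, 1968 and 1712 in the control replicates (0.06, SE 0.12), Kcnc2 had 690, 426 and 635 counts against 553, 522 and 468 (0.21, SE 0.14), and Kcnc4 had 419, 247 and 408 counts against 329, 332 and 320 (0.16, SE 0.16). WAS replicate 2 was the lowest of the 6 libraries in counts for all 3, while WAS replicate 1 was the highest. Without WAS replicate 2, Kcnc2 and Kcnc4 had an unadjusted p under 0.05, with log2 fold changes of 0.37 and 0.34 (adjusted p = 0.081 and 0.172 by edgeR). For WAS replicate 2 alone the values of Kcnc1 and Kcnc4 were -0.24 and -0.29.

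Kv4 channels carry the A-type current of dendrites, and the KChIP proteins, encoded by the Kcnip genes, bind them and change their surface level and inactivation. Of the 6 genes of this set among the 62, 1 had an unadjusted p under 0.05, against 7.24% of all features. Leaving out WAS replicate 2 gave 2 lower and 1 higher with a call, against 13.7% of all features in either direction. Kcnip3, encoding KChIP3, which is also known as the calcium-binding protein DREAM, had 780, 877 and 715 counts against 1023, 981 and 894. The groups overlapped only through WAS replicate 2, which after scaling was above control replicate 3 and below the other controls, and the log2 fold change was -0.24 (SE 0.11, unadjusted p = 0.0458 by edgeR). It was -0.37 without WAS replicate 2 and -0.02 for it alone, and the call was lost with any other single library left out (-0.16 to -0.27). Kcnip2 had 2471, 3749 and 2732 counts against 3397, 3517 and 3151 (-0.12, SE 0.15), with WAS replicate 2 above and the other WAS libraries below all controls. Without WAS replicate 2 the value of Kcnip2 was -0.37 (adjusted p = 0.035 by edgeR), and it was 0.27 for that replicate alone. Kcnd2, encoding Kv4.2, had 1749, 1931 and 1559 counts against 1861, 1938 and 1848 (-0.07, SE 0.11), and Kcnd3, outside the 62 genes, had 3 counts or fewer in each library.

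Kv7 channels carry the M current, which muscarinic receptors inhibit. Kcnq5 had 414, 709 and 411 counts in the WAS replicates and 804, 789 and 613 in the control replicates. WAS replicates 1 and 3 were below every control and WAS replicate 2 was within the control range. The log2 fold change was -0.47 (SE 0.21, unadjusted p = 0.0469 by edgeR), -0.83 without WAS replicate 2 (adjusted p = 0.00121) and 0.06 for it alone. The call was lost without WAS 1 (-0.32), WAS 3 (-0.32), control 1 (-0.42) or control 2 (-0.42). Kcnq3, of the same family, had 35, 29 and 27 counts against 45, 36 and 19 (-0.09, SE 0.34). Kcne1l, the only gene of the small KCNE subunits among the 62, had 89, 38 and 62 counts against 36, 32 and 57 (0.61, SE 0.34), and the groups overlapped. Without WAS replicate 2 its value was 0.85, with a call.

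Among the inward rectifiers, Kcnj4 encodes Kir2.3, a channel of forebrain neurons. It had 1694, 2466 and 1612 counts in the WAS replicates and 2602, 2697 and 2652 in the control replicates. WAS replicates 1 and 3 were far below the controls, and after scaling WAS replicate 2 was within their range. Over all libraries the log2 fold change was -0.41 (SE 0.16, unadjusted p = 0.0268 by edgeR), -0.68 without WAS replicate 2 (adjusted p = 0.000499) and 0.008 for it alone. The call was lost without WAS 1 (-0.31), WAS 3 (-0.28), control 2 (-0.41) or control 3 (-0.38).

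Kcnj16 encodes Kir5.1, which joins Kir4.1, the product of Kcnj10, in astrocytes. Kcnj16 had 573, 306 and 476 counts in the WAS replicates and 316, 354 and 374 in the control replicates, and Kcnj10 had 976, 610 and 958 against 847, 735 and 655. For both genes WAS replicates 1 and 3 were above every control and replicate 2 was not. Kcnj10 had a log2 fold change of 0.22 (SE 0.14) with no call, and 0.38 with a call without WAS replicate 2. The log2 fold change of Kcnj16 was 0.40 (SE 0.18, unadjusted p = 0.0426 by edgeR), 0.59 without WAS replicate 2 and -0.07 for it alone. The call was lost without WAS 1 (0.22), WAS 3 (0.37), control 1 (0.31) or control 2 (0.41). The last 500 bases of its transcript share a stretch of at least 50 bases with transcripts of other genes, among them Slc1a2, and multiple alignments were counted, so its counts are uncertain. The summed level of 10 astrocyte markers was 4745 to 4920 CPM in the WAS libraries and 4699 to 4848 CPM in the control libraries, with 7 of 10 higher and 3 past an unadjusted p of 0.05, and none at 3 counts or fewer throughout, and their part in the values of Kcnj10 and Kcnj16 was not tested.

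The GIRK channels, opened by G protein-coupled receptors, had 3 genes among the 62, all with log2 fold changes below 0. Kcnj3, encoding GIRK1, had 1743, 1551 and 1535 counts in the WAS replicates and 2105, 2158 and 1594 in the control replicates. Control replicate 3 lay among the WAS libraries. The log2 fold change was -0.24 (SE 0.10, unadjusted p = 0.0440 by edgeR), -0.25 without WAS replicate 2 and -0.21, with no call, for it alone, and the call was lost without WAS 3 (-0.19), control 1 (-0.20) or control 2 (-0.16). Kcnj11 and Kcnj8, the pore genes of the channels closed by ATP, had log2 fold changes of 0.003 and -0.32 (SE 0.16 and 0.32).

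Two-pore channels set the resting potential, and TREK and TRAAK channels of this group respond to membrane stretch, heat and lipids. Of the 8 genes among the 62, 6 were lower and 1 had an unadjusted p under 0.05, against 7.24% of all features. When WAS replicate 2 was left out, 3 were lower and 1 was higher with a call, against 13.7% of all features in either direction. Kcnk4, encoding TRAAK, had 35, 48 and 51 counts in the WAS replicates and 74, 81 and 58 in the control replicates. The groups did not overlap, and the log2 fold change was -0.62 (SE 0.25, unadjusted p = 0.0290 by edgeR), -0.72 without WAS replicate 2 and -0.45, with no call, for it alone. The call was lost without WAS 1 (-0.46), control 1 (-0.62) or control 2 (-0.52).

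The two-pore gene with the highest counts, Kcnk2, encoding TREK-1, had 1299, 2087 and 1266 counts in the WAS replicates and 1926, 2209 and 2011 in the control replicates. In CPM WAS replicate 2 was above every control and the other WAS libraries were below every control. Its log2 fold change was -0.35 (SE 0.19, unadjusted p = 0.0893 by edgeR), and without WAS replicate 2 it was -0.68 (adjusted p = 0.000948) and for that replicate alone 0.14. Kcnk10, encoding TREK-2, had 106, 50 and 73 counts against 66, 24 and 52 (0.72, SE 0.36), and 0.92 with a call without WAS replicate 2. Kcnk9, which encodes TASK-3, was at 0 counts in all 6 libraries.

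SK channels produce an afterhyperpolarization that follows action potentials, and 0 of their 3 genes among the 62 had a call. Kcnn3, with the highest counts of them, had 125, 163 and 180 counts against 131, 160 and 186 (0.008, SE 0.20). Of the sodium-activated channels, Kcnt1 (Slack) had 349, 481 and 242 counts against 441, 410 and 337 (-0.09, SE 0.22), with WAS replicate 2 highest and WAS replicate 3 lowest. Without WAS replicate 2 the value of Kcnt1 was -0.42, with a call, and it was 0.40 for that replicate alone. Kcnt2 (Slick) had 106, 96 and 84 counts against 115, 137 and 127 and was lower in every WAS library, with a log2 fold change of -0.37 (SE 0.18, unadjusted p = 0.0609 by edgeR). Kcnu1, whose channel is best known from sperm, had 23, 37 and 29 counts against 48, 40 and 25 (-0.29, SE 0.34). The non-coding transcript Kcnq1ot1, an imprinted antisense RNA of the Kcnq1 locus, had 7370, 6348 and 6923 counts against 7628, 7694 and 6030 (-0.009, SE 0.089). Kcnq1 itself was not among the 62 genes, with 4 counts or fewer in every library.

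**Figure D5:**
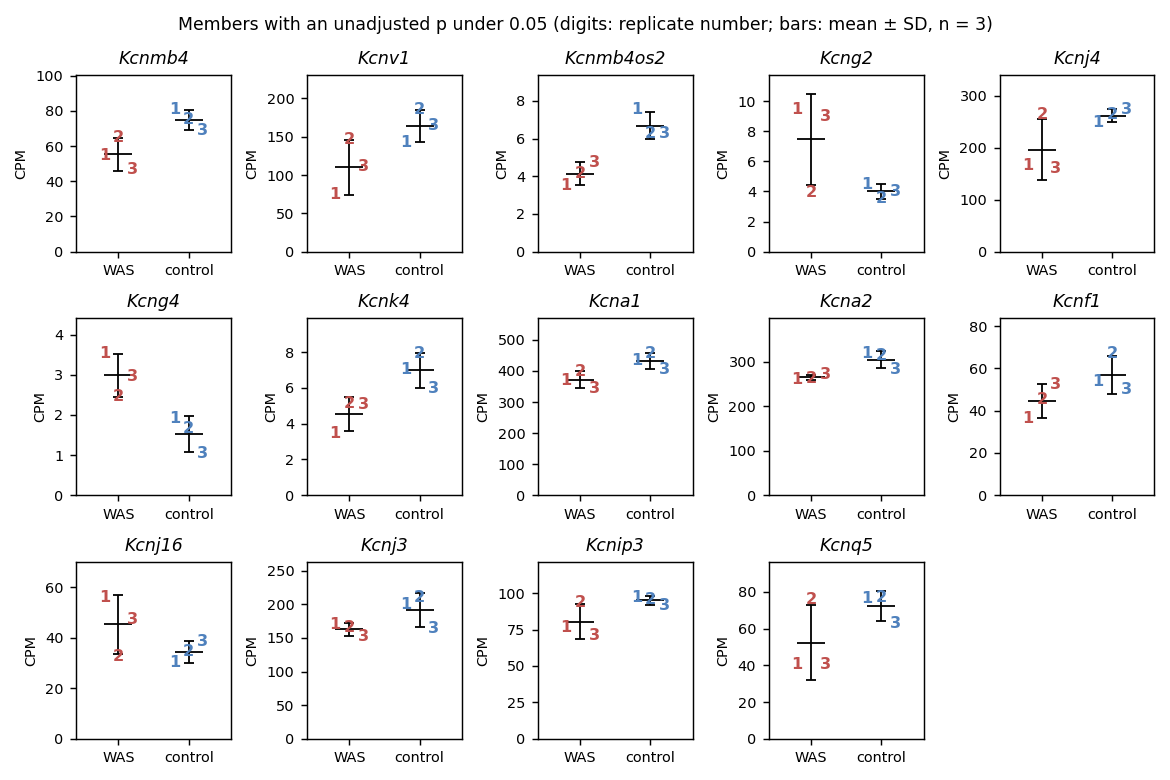
CPM of 14 of the 15 channel genes with an unadjusted p under 0.05 in each library, with digits for replicate numbers and bars for the mean ± SD (n = 3), each axis starting at 0. WAS replicate 2 lies at or near the control values for Kcng2, Kcnj4, Kcnj16 and Kcnq5 and below them for Kcnmb4, Kcnmb4os2, Kcna2 and Kcnk4.

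The minimum of 10 counts left out genes close to it. Kcng4 was just inside with a lowest count of 10. Just outside were Kcnj14, with 11, 12 and 19 counts in the WAS replicates and 14, 8 and 14 in the control replicates, and Kcne4, with 21, 15 and 30 against 23, 26 and 7. Of the 26 genes left out, 13 had 3 counts or fewer in every library and 6 (Kcnk9, Kcnk16, Kcnk15, Kcnj1, Kcne1 and Kcna7) were at 0 throughout.

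Promoters are shown for the protein-coding genes with an unadjusted p under 0.05 whose single listed start in RefSeq is also the gene start in GENCODE in these libraries, so that the sequence ahead of genes called here can be read beside their counts. Each line gives the 250 bases before the start, 5′ to 3′ on the strand of the gene, from RefSeq on GRCm38.p6 (the assembly of mm10), at chr12:17176889-17177138 (minus strand) for Kcnf1, chr8:119635681-119635930 (minus) for Kcng4, chr2:55435720-55435969 (plus) for Kcnj3, chr15:79505242-79505491 (minus) for Kcnj4 and chr19:6934516-6934765 (minus) for Kcnk4. Capitals mark matches to GGGCGG, the GC box, on either strand.
Kcnf1: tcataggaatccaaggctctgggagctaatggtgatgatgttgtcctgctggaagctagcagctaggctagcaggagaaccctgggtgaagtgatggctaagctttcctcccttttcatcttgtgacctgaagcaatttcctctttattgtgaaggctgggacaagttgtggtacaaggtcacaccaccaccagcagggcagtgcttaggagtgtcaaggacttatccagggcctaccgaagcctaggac
Kcng4: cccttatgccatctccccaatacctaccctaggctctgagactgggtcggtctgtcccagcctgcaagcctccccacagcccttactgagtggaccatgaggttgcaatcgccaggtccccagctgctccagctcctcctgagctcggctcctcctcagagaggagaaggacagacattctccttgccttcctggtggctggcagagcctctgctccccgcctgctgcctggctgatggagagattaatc
Kcnj3: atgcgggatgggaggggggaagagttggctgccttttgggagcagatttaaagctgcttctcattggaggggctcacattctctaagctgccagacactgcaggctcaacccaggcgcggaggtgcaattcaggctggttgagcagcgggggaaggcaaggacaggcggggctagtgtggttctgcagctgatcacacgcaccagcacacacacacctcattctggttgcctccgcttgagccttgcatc
Kcnj4: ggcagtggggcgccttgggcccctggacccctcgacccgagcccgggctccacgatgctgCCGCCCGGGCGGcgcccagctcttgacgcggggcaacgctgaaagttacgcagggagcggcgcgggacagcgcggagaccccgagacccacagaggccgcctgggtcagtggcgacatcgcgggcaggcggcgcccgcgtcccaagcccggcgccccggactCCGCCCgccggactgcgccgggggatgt
Kcnk4: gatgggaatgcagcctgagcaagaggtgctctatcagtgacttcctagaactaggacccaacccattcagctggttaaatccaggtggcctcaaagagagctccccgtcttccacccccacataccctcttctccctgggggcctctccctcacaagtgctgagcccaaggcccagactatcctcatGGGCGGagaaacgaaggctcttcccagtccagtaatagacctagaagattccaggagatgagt

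The GC box was found 3 times in the promoter of Kcnj4, whose GC content was 77.2%, and 1 time in that of Kcnk4, at 54.8%. None was found in the promoters of Kcnf1, Kcng4 and Kcnj3, at 51.2%, 60.4% and 58.4%. RefSeq promoters were matched for 44 of the 62 genes, with 67 listed starts. A GC box was present in 41.8% of these 67 promoters and in 32.7% of all 32851 listed promoters of this length. Their median GC content was 58.8% against 52.4%. Elements bound by factors known from activity-dependent transcription were searched for on both strands as well. The cAMP response element TGACGTCA was in 0% of the promoters of the channel genes and in 1.55% of all, the AP-1 element TGANTCA in 4.48% and 6.75%, the EGR element GCGNGGGCG, which can overlap a GC box, in 2.99% and 4.7%, and the E-box CACGTG in 4.48% and 6.02%. These are matches of letters in a short window.

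Partner proteins and other genes of potassium handling were read from a list of 28 genes, 26 of which were tested. It comprised the Kv4 partners Dpp6 and Dpp10, the Kv2 partner Amigo1, the sulfonylurea receptors, the gamma subunits of BK channels, the Lgi1 and Caspr2 complexes of the axon, the HCN channels, ion pump subunits and the chloride cotransporters. Of the 26, 12 were higher and 14 lower, and the median log2 fold change was -0.005. An unadjusted p under 0.05 was reached by 2 (7.69%), a share close to that of all features. Among them Lrrc26, a gamma subunit of BK channels, had 530, 512 and 452 counts against 651, 562 and 659.

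In CPM the groups did not overlap for Lrrc26. Its log2 fold change was -0.29 (SE 0.11, unadjusted p = 0.0274 by edgeR), -0.35 without WAS replicate 2 and -0.17 for it alone, and the call was lost without WAS 3 (-0.21), control 1 (-0.28) or control 3 (-0.21). The Kv4 partners Dpp6 and Dpp10 had values of 0.14 and -0.14, and Hcn2 had 0.03, without a call.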

How the data were processed

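QuantSeq 3′ mRNA-Seq libraries of 6 forebrain hemispheres, 3 labelled WAS and 3 labelled control, were analysed. The authors aligned single-end reads with Bowtie2, used bedtools to count both unique and multiple alignments of a gene, and deposited raw read counts without the quantile normalization they used later. The labels name the build mm10, and the versions of both tools are not given in the sources used here. Features with a mean log2(quantile-normalized count + 1) of at least 2 were tested (15239 of 23282, of which 44 repeat a symbol) by edgeR 4.0.16 (R 4.3.3) with TMM scaling and no block, and p-values were adjusted by Benjamini-Hochberg over all of them. A standard error is the log2 fold change over the root of its F statistic. Alternatives used total-count and DESeq2 scaling, DESeq2 1.42.0, limma 3.58.1, other filters, a replicate block, each library left out and a minimum of 50 counts per gene. Counting only protein-coding genes, and WAS replicate 2 alone against controls, were chosen after seeing the data. Named were channel and partner genes with an unadjusted p under 0.05, the gene of each family with the highest mean CPM (not divided by length) and those next to the 10-count minimum, and other genes were named after their values were seen. The genes and lists were chosen with earlier results of these data known. The fit was tested on simulated data. An exact permutation test of 3 against 3 cannot go below p = 0.1. Some genes of these lists enter the counts and medians but are not reported here by name.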

Additional observations from a re-analysis of the deposited data

How the results depend on the processing

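The median log2 fold change of the 62 channel genes stayed below 0 in every alternative, between -0.14 and -0.04. The number with an unadjusted p under 0.05, 15 in the full comparison, was 9 with total-count scaling, 6 with limma, 19 with the replicate block (9.37% of all features), 5 for WAS replicate 2 alone and 4 to 32 with each single library left out. The number meeting the fold and p limits of the study, 4, was 2 for WAS replicate 2 alone, where 2.34% of all features met them, and 0 among the 44 genes with at least 50 counts in every library, where 0.993% of such features did. It was 14 without WAS replicate 2 (5.45% of all features) and 0 to 4 without each other library (1.71% to 2.92%). The number with an adjusted p under 0.05, 0 in the full comparison, was 1 (Kcnv1) with the replicate block (0.322% of all features) and 0 to 10 with each library left out. The number without overlap, 7, was 4 at the minimum of 50 counts (12.2% of such features) and 9 to 33 with each library left out. Of the partner genes, 2 passed an unadjusted p of 0.05 in the full comparison (7.24% of all features). With total-count scaling 4 passed (7.66%), with limma 0 (5.7%), and with each library left out 0 to 6 (4.09% to 13.7%). For WAS replicate 2 alone, the direction turned for 29 of the 62 channel genes, among them those with a call in either comparison, Kcnc1 (-0.24), Kcng2 (-0.022), Kcnip2 (0.27), Kcnj16 (-0.075), Kcnj4 (0.0084), Kcnq5 (0.065), Kcnt1 (0.40), Kcnj2 (0.85) and Kcna5 (1.06), and fewer libraries entered that comparison. Replicate numbers are shared by the groups. Same-numbered libraries deviated together with small correlations of 0.066 to 0.087, and each correlated best with its own number. These values cannot tell whether the numbers pair the samples, and the main fit used no block. At these counts, differences in genes near 10 counts per library could not be measured closely, as the standard errors of Kcng4 (0.38) and Kcna3 (0.37) show. The cause of the other changes was not tested.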
